A study of Mus musculus with 20 samples.

Results

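Acylglycerol synthesis was followed in mouse whole tracheas through 7 genes, Gpam, Agpat2, Lpin1, Mogat1, Mogat2, Dgat1 and Dgat2, of the 27962 gene names on a whole genome oligonucleotide array. Every probe that carried 1 of these names was used, which gave 16 of 41174 probes: 3 for Mogat1, 1 for Mogat2, 2 for Dgat1, 3 for Dgat2, 2 for Agpat2, 4 for Lpin1 and 1 for Gpam. All 16 passed the filter on dim probes, which asked for a signal well above background on 10 or more of the 20 arrays, and were among the 26063 probes tested. The genes were chosen by name, with Mogat2 at the centre because its signal had already been seen to differ between uninjured Myd88KO and wild-type tracheas without differing in the injury comparisons. Those comparisons are therefore given for Mogat2 as a description, with no p-value and nothing read from whether it was called. The test given for Mogat2 is the comparison between the injured groups. It is not independent of the choice either, because the same injured arrays entered the injury comparisons.

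The 20 samples were 5 uninjured and 5 injured tracheas from wild-type C57/Bl6 mice and the same from Myd88KO mice, which lack the adaptor protein that links Toll-like and interleukin 1 receptors to NF-κB signalling. Injured mice had received 2% polidocanol, a detergent that strips the tracheal epithelium, 3 days before collection, and uninjured mice served as controls. The labels give an age of 4 months for all groups, and the methods give a wider range and both sexes. Every group was made of whole tracheas trimmed of connective tissue, 1 array per trachea, described as biological replicates. Myd88 was deleted in all cells of the knockout, whose line was back-crossed to C57/Bl6JOlaHsd, kept by mating knockouts to each other and housed as a colony separate from the wild-type one, so that genotype and colony cannot be told apart. Each of 5 slides carried an array from all 4 groups, with the replicate number shared within the slide.

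Triacylglycerol, the storage form of fat, is built by 2 routes that meet at diacylglycerol. In the glycerol phosphate route Gpam, a mitochondrial acyltransferase, adds the first fatty acid to glycerol-3-phosphate, Agpat2 adds the next to give phosphatidate, and the phosphatase Lpin1 removes the phosphate. In the monoacylglycerol route Mogat1 and Mogat2 add a fatty acid to monoacylglycerol, a reaction best known from Mogat2 in the absorptive cells of the intestine. Dgat1 and Dgat2 then add the last fatty acid. In mice the Dgat2 and Mogat2 genes lie side by side on chromosome 7 and encode related enzymes.

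Signals are log2 intensities relative to the 75th percentile of each array, so that 0 is a fairly bright probe and each unit is a doubling. Levels are compared between groups for 1 probe at a time and never between probes. On 1 array, injured Myd88KO replicate 5, the injury markers went against the label. Scgb1a1, the secretory cell protein that the detergent removes, was 6.97 to 8.25 in uninjured tracheas and −1.16 to −0.09 in injured wild-type tracheas, but 4.79, −0.84, 2.72, 0.18 and 7.56 on injured Myd88KO arrays 1 to 5. Cd68, a macrophage marker, was −1.34 to −0.26 in uninjured and 1.20 to 2.90 in injured wild-type tracheas, and −0.27, 2.51, 0.65, 2.31 and −1.29 on the injured Myd88KO arrays. Array 5 lay with the uninjured tracheas for both genes and array 1 lay with them for Cd68 and between the groups for Scgb1a1. Array 5 was also the only array of its group with low Xist, against 2 arrays in each of the other groups. Injury differences of the members in Myd88KO tracheas are therefore given with and without array 5. The Myd88 probe gave a signal of 1.54 to 2.09 on Myd88KO arrays and 1.93 to 2.80 on wild-type arrays. Since its place relative to the deletion is not given in the sources used here, it does not check the genotype.

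Upstream sequences were available for 4 of the 7 genes in RefSeq tables for the mouse build GRCm38.p6. They are shown here as the 250 bases before the gene start for Lpin1, Agpat2 and Mogat1, 3 genes whose probes were all lower in injured than in uninjured Myd88KO tracheas. Capitals mark matches to the motifs searched.
Lpin1, chr12:16610967-16611216, minus strand: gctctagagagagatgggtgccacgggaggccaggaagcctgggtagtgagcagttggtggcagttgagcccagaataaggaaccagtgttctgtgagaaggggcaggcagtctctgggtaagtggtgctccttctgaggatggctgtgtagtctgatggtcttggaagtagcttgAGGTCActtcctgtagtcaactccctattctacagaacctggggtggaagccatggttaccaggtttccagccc
Agpat2, chr2:26604418-26604667, minus strand: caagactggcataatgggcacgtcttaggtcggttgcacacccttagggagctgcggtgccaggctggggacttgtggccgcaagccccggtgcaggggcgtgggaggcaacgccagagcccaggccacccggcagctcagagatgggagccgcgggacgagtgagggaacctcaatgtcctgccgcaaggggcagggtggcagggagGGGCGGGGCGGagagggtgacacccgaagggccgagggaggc
Mogat1, chr1:78510810-78511059, plus strand: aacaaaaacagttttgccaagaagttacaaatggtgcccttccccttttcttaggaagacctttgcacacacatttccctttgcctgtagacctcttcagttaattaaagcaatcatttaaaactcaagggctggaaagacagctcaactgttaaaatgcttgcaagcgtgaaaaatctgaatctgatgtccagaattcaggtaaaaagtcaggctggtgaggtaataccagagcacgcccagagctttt
The letters AGGTCA, a nuclear receptor site, had 1 match in the Lpin1 window, 74 to 69 bases before the start, and were present on either strand in 14% of the 32851 windows of this length. The Agpat2 window held 2 overlapping matches to the GC box GGGCGG, between 42 and 32 bases before the start, a motif found in 32.7% of windows, and 69.2% of its bases were G or C. No motif searched occurred in the Mogat1 window, of which 41.2% was G or C. Of the 2 windows listed for Gpam, 1 held a CCAAT match (33.8% of windows) and the other held AGGTCA and GGGCGG. None of the member windows held CACGTG (6.02% of windows), TATAAA (12.4%), the sterol regulatory letters TCACNCCAC (1.05%) or AGGTCA repeated in the same direction with 1 base between, a site of PPAR receptors that overlaps 2 matches of the shorter one (0.0335%). Mogat2, Dgat1 and Dgat2 are named only.

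Of the 16 probes, that of Mogat2 had the widest range of group means. Its probe (chr7:95250993-95251052, the build of the array's positions not being stated in the sources used here) gave −3.14, −4.29, −3.28, −3.22 and −3.97 on the uninjured wild-type arrays. On the uninjured Myd88KO arrays it gave −0.17, −0.94, −0.41, −1.60 and −1.64. Every uninjured Myd88KO array thus lay above every uninjured wild-type array, with means of −0.95 ± 0.67 and −3.58 ± 0.52 (SD, n = 5 each), a difference of 2.63 or 6.18-fold. With background corrected by normexp, a model of signal plus background, the difference was 1.75. This is the comparison from which the gene was chosen. In this comparison 0.384% of all probes tested were called at an adjusted p under 0.01 and 1.71% had groups that did not overlap with Myd88KO higher, and nothing is read from the place of Mogat2 among them. As whole organ RNA was measured, more cells that express a gene and more RNA per cell cannot be told apart.

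After injury, the values of Mogat2 in the 2 genotypes overlapped. The injured arrays had entered the choice of Mogat2 through the injury comparisons, so the tests given here are not independent of it. The probe gave −2.26, −3.21, −2.66, −3.08 and −2.07 on the injured wild-type arrays, with a mean of −2.66 ± 0.50 (SD, n = 5). It gave −1.28, −2.90, −2.63, −2.63 and −2.93 on the injured Myd88KO arrays, with a mean of −2.47 ± 0.68 (SD, n = 5). Of the injured arrays, 4 of the 5 Myd88KO arrays lay within the range of the wild-type ones. The difference of 0.18 (SE 0.36, 95% interval −0.56 to 0.93) did not pass the test by limma over all probes (adjusted p = 0.879), nor the 2-sided exact permutation test of the 2 injured groups (p = 0.683, the smallest possible being 0.00794). Injured Myd88KO replicate 1 decided the sign, since without it the difference was −0.11 (adjusted p = 0.937), and without the array that went against its label it was 0.30 (adjusted p = 0.803). Over all 33 alternatives the adjusted p was 0.738 to 1. Within slides the injured Myd88KO array was above the wild-type one on 4 and below it on 1, by 0.98, 0.31, 0.02, 0.46 and −0.85.

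**Figure D1:**
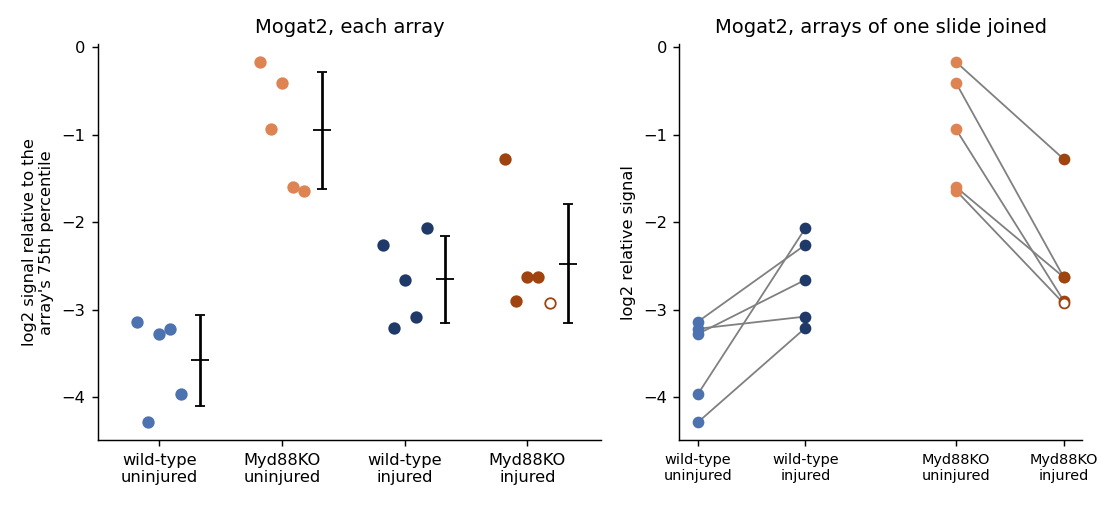
Left, Mogat2 signal (log2 relative to the array's 75th percentile) on each of the 20 arrays, with the mean and SD of each group beside the points. Right, the same values with the uninjured and injured arrays of a slide joined, where all 5 wild-type lines go up and all 5 Myd88KO lines go down. The open circle is injured Myd88KO replicate 5.

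Injured and uninjured tracheas differed in opposite directions in the 2 genotypes. Within a slide, the injured wild-type array was above the uninjured one by 0.14 to 1.90 on all 5 slides. The injured Myd88KO array was below the uninjured one by values of −1.02 to −2.22, again on all 5. The mean changes were 0.92 in wild-type and −1.52 in Myd88KO tracheas, and their difference was −2.45. On injured Myd88KO replicate 5, where the injury markers were absent, Mogat2 was at −2.93, the lowest of its group, and without this array the mean change in Myd88KO was −1.41. These values share the uninjured arrays from which Mogat2 was chosen and are given as a description.

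The other 6 genes differed less between the uninjured groups. All 15 of their probes had a higher mean in Myd88KO than in wild-type, by 0.06 to 0.81 with a median of 0.41, where the median of all probes was 0.04 and 56.7% of probes were higher in Myd88KO. The sign of the Mogat1 probes was not settled. Probes 1 and 2 turned to −0.01 and −0.06 with normexp, to −0.09 and −0.11 with array weights and to −0.06 and −0.20 without uninjured wild-type replicate 5. Without uninjured Myd88KO replicate 1 the 3 probes were at −0.13, −0.11 and −0.01. None of the 15 had groups that did not overlap, against 1.71% of all probes with Myd88KO higher, and none was called, against 0.384%. The widest differences were those of the 2 Agpat2 probes (0.79 and 0.81) and the 3 Dgat2 probes (0.70, 0.72 and 0.61), and the narrowest those of Mogat1 (0.06, 0.06 and 0.16). The difference of Mogat2 was thus 1.82 wider on the log2 scale than that of any other member probe. This gap depends on the processing, since with normexp the difference of Mogat2 itself was 1.75 instead of 2.63. The contrast is the one behind the choice of Mogat2, and no test is drawn from it.

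With injury, probes of Gpam, Agpat2, Lpin1, Mogat1 and Dgat2 had lower means in both genotypes, while those of Dgat1 were higher in wild-type and lower in Myd88KO. In Myd88KO tracheas all 15 probes other than that of Mogat2 were lower after injury, with a median of −1.0 against −0.07 over all probes, and 57.7% of all probes were lower. Without replicate 5 it was 14 of 15, with a median of −1.26 against −0.08 over all probes. The exception was Dgat1 probe 1, whose difference of −0.05 changed sign under 6 of 33 alternatives. None passed the adjusted threshold, which 0.376% of all probes passed. At an unadjusted p under 0.05, 13 of the 15 were lower, against 12.2% of all probes, and for 3 of the 15, all of Dgat2, the groups did not overlap, against 2.3%. Without injured Myd88KO replicate 5, 4 of the 15 passed by limma, 1 of Dgat2 and 3 of Lpin1, and 4.12% of all probes then passed. Probes of 1 gene read the same transcript, so these counts are not counts of independent genes. In wild-type tracheas 13 of the 15 probes were lower, against 50% of all probes, and none passed the adjusted threshold, which 5.26% of all probes passed. There 6 of the 15 were lower at an unadjusted p under 0.05, against 11.9% of all probes, and 2, both of Mogat1, had groups that did not overlap, against 4.68%. Mogat1 probe 2 is in the counts under an unadjusted 0.05 of both genotypes. It was well above background on only 2 injured wild-type and 1 injured Myd88KO arrays, and passed the filter mainly through the uninjured ones.

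Gpam, the first enzyme of the glycerol phosphate route, varied little among the uninjured tracheas of a genotype. Its probe (chr19:54985147-54985206) gave −2.90, −2.80, −2.87, −2.65 and −2.71 in uninjured wild-type and −2.65, −2.52, −2.71, −2.44 and −2.46 in uninjured Myd88KO tracheas. After injury it gave −2.75, −3.06, −3.44, −2.52 and −3.10 in wild-type and −2.71, −3.47, −2.99, −3.20 and −2.67 in Myd88KO tracheas. The groups overlapped in each comparison. The injury difference was −0.19 (SE 0.17, adjusted p = 0.522) in wild-type and −0.45 (SE 0.17, adjusted p = 0.151) in Myd88KO tracheas by limma. Without replicate 5 the latter was −0.54 (adjusted p = 0.0514).

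Agpat2, whose loss causes a lack of body fat in humans and mice, was read by probes at chr2:26600898-26600924 and chr2:26603419-26603478 that behaved alike. Probe 1 gave 0.19, 0.04, 0.55, 0.89 and 0.03 in uninjured wild-type and 0.62, 1.54, 1.66, 1.47 and 0.35 in uninjured Myd88KO tracheas. After injury it gave −0.57, 0.41, −0.21, 0.81 and −0.16 in wild-type and 0.24, 0.33, 0.28, 0.82 and 0.23 in Myd88KO tracheas. The 3 highest arrays were all uninjured Myd88KO, while the other 2 of that group lay among the rest. The injury difference was −0.28 (SE 0.28, adjusted p = 0.566) in wild-type and −0.75 (SE 0.28, adjusted p = 0.148) in Myd88KO tracheas by limma, and probe 2 gave −0.25 and −0.74. Without replicate 5 the 2 probes differed by −0.71 and −0.69 in Myd88KO tracheas (adjusted p = 0.135 and 0.165).

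Lpin1, the phosphatase that makes diacylglycerol and also a coactivator of fat oxidation genes, was the member most affected by the array that went against its label. Probe 3 (chr12:16591634-16591693) gave 2.03, 1.90, 1.44, 1.80 and 2.24 in uninjured wild-type and 2.29, 2.06, 2.37, 2.29 and 2.58 in uninjured Myd88KO tracheas. After injury it gave 1.91, 1.26, 0.87, 1.5 and 1.45 in wild-type and 1.51, 0.97, 0.67, 0.93 and 2.51 in Myd88KO tracheas. The value of 2.51 was replicate 5, and the other 4 injured Myd88KO arrays lay below all 5 uninjured ones. Over all arrays the difference in Myd88KO tracheas was −1.0 (SE 0.27, adjusted p = 0.0496 by limma), which missed the threshold, and without replicate 5 it was −1.30 (adjusted p = 0.000651), past it. The adjusted p of this probe was 0.000651 to 0.231 over 33 alternatives. Without that array, probes 2 and 4 of Lpin1 also passed, at −1.44 (adjusted p = 0.00105) and −1.25 (adjusted p = 0.00108), and probe 1, at the other end of the probed stretch (chr12:16590760-16590818), did not, at −0.82 (adjusted p = 0.147). In wild-type tracheas the 4 probes differed by −0.48 to −0.55 with adjusted p of 0.221 to 0.355.

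Mogat1, which carries out the same reaction as Mogat2, was lower in injured than in uninjured wild-type tracheas for all 3 probes. Its probes are placed on an unordered part of chromosome 1, and probe 3 gave −0.91, −1.19, −1.73, −1.21 and −1.61 in uninjured wild-type tracheas. This probe gave −0.48, −1.35, −1.0, −1.81 and −1.22 in uninjured Myd88KO tracheas. After injury it gave −2.53, −2.79, −2.39, −1.92 and −2.35 in wild-type and −0.69, −2.92, −2.92, −3.19 and −1.34 in Myd88KO tracheas. All 5 injured wild-type arrays lay below all 5 uninjured ones, and in Myd88KO tracheas arrays 2, 3 and 4 did so while arrays 1 and 5 lay among the uninjured ones. The difference in wild-type was −1.07 (SE 0.39, adjusted p = 0.0779) for this probe, and −1.33 (SE 0.45, adjusted p = 0.0566) and −1.33 (SE 0.45, adjusted p = 0.0594) for probes 1 and 2, which missed the threshold of 0.01 by limma. In Myd88KO tracheas the 3 probes differed by −1.22, −1.16 and −1.04, with adjusted p of 0.137 to 0.165. Without replicate 5 they differed by −1.43, −1.28 and −1.26, with adjusted p of 0.0428 to 0.0909. Probe 2 was dim, being well above background on 4 and 5 arrays of the uninjured wild-type and Myd88KO groups and on 2 and 1 arrays of the injured ones.

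Dgat1, which finishes triacylglycerol in the endoplasmic reticulum, had injury differences of both signs. Probe 2 (chr15:76585251-76585397) gave −0.59, −0.29, −0.45, 0.15 and −0.43 in uninjured wild-type and −0.14, 0.10, 0.24, 0.26 and −0.30 in uninjured Myd88KO tracheas. After injury it gave −0.70, −0.09, −0.23, 0.54 and −0.31 in wild-type and −0.34, −0.26, −0.12, −0.02 and −0.64 in Myd88KO tracheas. All groups overlapped. The injury difference for its 2 probes was 0.21 (95% interval −0.34 to 0.77) and 0.17 (−0.26 to 0.59) in wild-type and −0.05 (−0.61 to 0.50) and −0.31 (−0.73 to 0.12) in Myd88KO tracheas. Without replicate 5 the latter were 0.02 and −0.21.

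Dgat2, which makes triacylglycerol for lipid droplets, had the lowest adjusted p of the members in the injury comparison of Myd88KO tracheas. Probe 3 (chr7:95185607-95185666) gave 4.81, 4.72, 5.57, 5.04 and 4.73 in uninjured wild-type and 5.86, 5.37, 5.58, 5.59 and 5.54 in uninjured Myd88KO tracheas. After injury it gave 4.04, 4.00, 3.96, 4.79 and 4.31 in wild-type and 5.19, 3.86, 3.53, 3.74 and 4.85 in Myd88KO tracheas. All 5 injured Myd88KO arrays lay below all 5 uninjured ones, with arrays 1 and 5 closest to them. The difference was −1.35, or 2.55-fold (SE 0.28, adjusted p = 0.0148 by limma), just short of the threshold, and without replicate 5 it was −1.5 (adjusted p = 0.00215). Over 33 alternatives the adjusted p was 5.22e-05 to 0.178. Probes 1 and 2 differed by −1.26 (adjusted p = 0.0452) and −1.33 (adjusted p = 0.0462), and without replicate 5 by −1.37 (adjusted p = 0.0186) and −1.43 (adjusted p = 0.0207). In wild-type tracheas the 3 probes differed by −0.76 to −0.83, with adjusted p of 0.0782 to 0.136, and for each probe the injured array was the lower on all 5 slides in both genotypes.

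**Figure D2:**
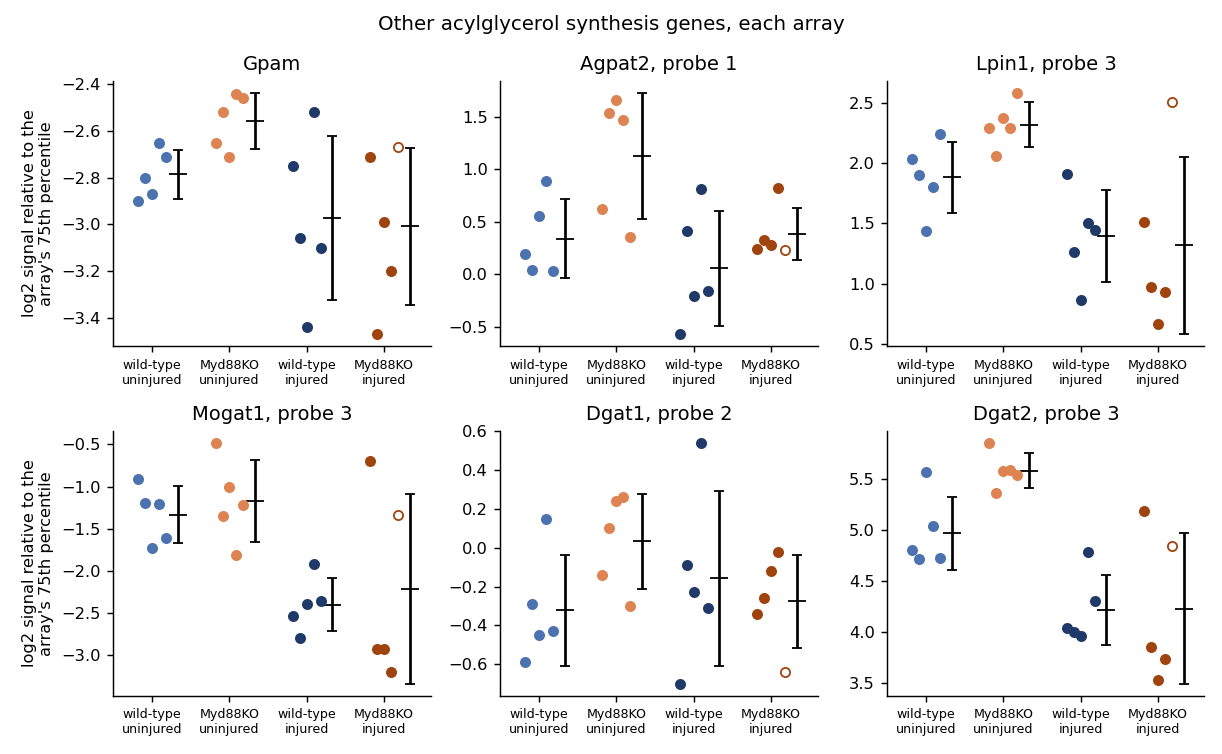
Signal of 1 probe for each of the other 6 genes (log2 relative to the array's 75th percentile, axes differ between genes) on the 5 arrays of each group, with the mean and SD beside the points. The open circle is injured Myd88KO replicate 5. It lies within the range of the uninjured Myd88KO arrays for Lpin1, Mogat1 and Gpam, and below that range for Agpat2, Dgat1 and Dgat2.

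Between the injured groups none of the 16 probes passed the test, and none had an unadjusted p under 0.05, against 0.38% of all probes past the adjusted threshold and 12.5% of all probes under the unadjusted one. The differences ran from −0.20 (Lpin1 probe 2) to 0.32 (both Agpat2 probes), with adjusted p of 0.674 to 0.992 by limma. Without replicate 5, 1 of the 15 probes other than that of Mogat2 had an unadjusted p under 0.05. Nothing is read from this count, since the share of all probes was not computed there. In that fit none of the 15 was called (smallest adjusted p = 0.444), where 85 of all probes were. Over all arrays the widest 95% interval was that of Mogat1 probe 2, from −0.71 to 1.18, so that with 5 arrays per group differences within such an interval were not excluded.

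A comparison of how far each genotype changed with injury called none of the 15 probes and none on the array (0%). None of the 15 had an unadjusted p under 0.05, against 10.4% of all probes. Without replicate 5 it was 3 of the 15, from which nothing is read, since the share of all probes was not computed there. In that fit none of the 15 was called (smallest adjusted p = 0.407 by limma), where 3 of all probes were. Over all arrays the differences of the 15 were −0.59 to 0.17 with a median of −0.46, against −0.09 over all probes. For Dgat2 probe 3 it was −0.59 (SE 0.39, adjusted p = 0.589).

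**Figure D3:**
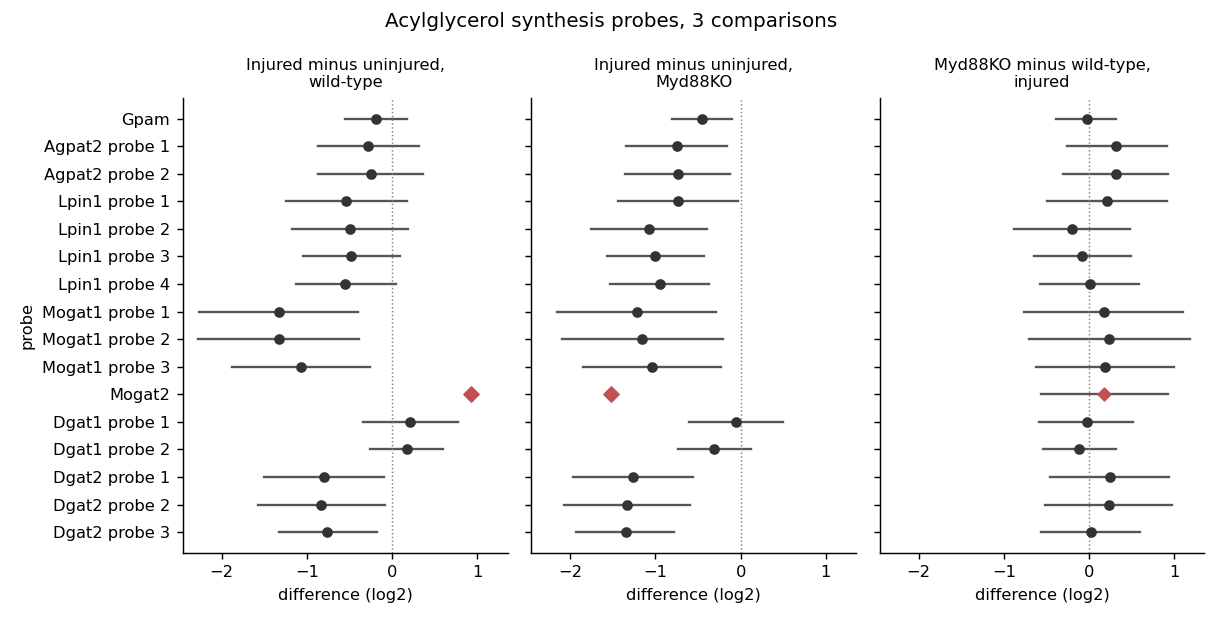
Differences on the log2 scale (points) with 95% intervals of limma (lines) for the 16 probes in 3 comparisons, ordered by place in the pathway. Mogat2 (diamond) has no interval in the injury panels, whose comparisons were used to choose it. Its interval between the injured groups runs from −0.56 to 0.93.

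Around the members, 74 further genes of glycerolipid handling were listed in 6 groups, of which 63 (104 probes) were tested. In wild-type tracheas 4 of the 104 probes passed the test, 2 higher and 2 lower after injury, where 5.26% of all probes passed. Dgkz, a kinase that turns diacylglycerol back into phosphatidate, rose by 0.61 (SE 0.14, adjusted p = 0.00776), and Lipa, the lysosomal acid lipase, rose by 1.27 (SE 0.25, adjusted p = 0.00333). Chpt1, which uses diacylglycerol for phosphatidylcholine, fell by 1.37 (SE 0.33, adjusted p = 0.00965), and Cd36, a fatty acid transporter, fell by 1.23 (SE 0.28, adjusted p = 0.00647). In the same tracheas 4 of 8 myeloid markers rose, and their part in the change of Lipa was not tested. In Myd88KO tracheas none of the 104 probes passed the test over all arrays, where 0.376% of all probes passed.

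Without injured Myd88KO replicate 5, 9 of the 104 passed in Myd88KO tracheas, 8 lower and 1 higher, where 4.12% of all probes passed. The lower ones were Gpd1, which supplies glycerol-3-phosphate (−1.16, adjusted p = 0.00457), Agpat5 (−0.90, adjusted p = 0.00573), Plpp3, a lipid phosphate phosphatase (−0.79, adjusted p = 0.00608), and Mgll, the lipase of monoacylglycerol (−0.90, adjusted p = 0.00355). They also held the lipid droplet proteins Plin5 (−1.15, adjusted p = 0.00703) and Fitm2 (−0.98, adjusted p = 0.0021) and the transcription factors Ppara (−1.21, adjusted p = 0.00183) and Srebf1 (−0.59, adjusted p = 0.00998). The higher one was Selenoi, an ethanolamine phosphotransferase (0.96, adjusted p = 0.00575). Gpd1, Agpat5, Mgll and Fitm2 passed through 1 of 2 probes. The other probe differed by −1.39 (adjusted p = 0.0117) for Gpd1 and −0.70 (adjusted p = 0.019) for Mgll, but by −0.04 for Agpat5 and −0.08 for Fitm2. Selenoi passed through 1 of 3, the others differing by 0.54 and −0.07. By list, the median injury difference in Myd88KO tracheas over all arrays was −0.69 for 11 lipid droplet probes, −0.57 for 16 lipolysis probes, −0.57 for 10 regulator probes, −0.53 for 4 chylomicron probes, −0.11 for 22 probes of diacylglycerol and phosphatidate use, and −0.02 for 41 probes of other glycerolipid enzymes, against −1.02 for the 16 member probes and −0.07 for all probes.

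Between the genotypes, 1 of the 104 probes passed the test in uninjured tracheas, where 0.384% of all probes passed. The same probe was the 1 that passed in injured tracheas, where 0.38% did. It was 1 of the 5 probes (chr2:132036620-132036679) of Cds2, which diverts phosphatidate to CDP-diacylglycerol. This probe was higher in Myd88KO by 1.72 (SE 0.20, adjusted p = 4.13e-05) in uninjured and 1.14 (SE 0.20, adjusted p = 0.0047) in injured tracheas. Another Cds2 probe (chr2:132046072-132046131) went the other way, by −0.23 in uninjured and −1.09 (adjusted p = 0.0197) in injured tracheas, and the remaining 3 differed by −0.17 to 0.18. Plin1, the coat protein of adipocyte lipid droplets, had group means of 2.53 and 3.45 in uninjured wild-type and Myd88KO tracheas and 2.33 and 2.4 in injured ones. Its injury difference in Myd88KO was −1.05 (SE 0.33, adjusted p = 0.0859). Pnpla2, the triacylglycerol lipase, differed by −0.81 (SE 0.23, adjusted p = 0.0561) in that comparison for 1 of its 2 probes, and Lipe, the hormone-sensitive lipase, by −0.75 for 1 probe that carries its name (SE 0.22, adjusted p = 0.0718) and by −0.79 for the other (adjusted p = 0.156). Another probe, named 4933403G17Rik on the array and assigned to Lipe by the name table, differed by 0.91 (SE 0.30, adjusted p = 0.096). Lpl, the lipase that draws fatty acids from the blood, differed by −0.28 and −0.32 there and by −0.79 (adjusted p = 0.0779) and −0.54 (adjusted p = 0.102) with injury in wild-type.

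Fat cell markers are given beside the members, and Lipe, Plin1, Cidec and Cidea stood both among these markers and in the lists above. The signal was summed over 9 white adipocyte markers, of which 8 were above background on all 20 arrays. The sum had a median of 9.10 (8.33 to 9.24) in uninjured wild-type and 8.96 (8.93 to 9.78) in uninjured Myd88KO tracheas. After injury it was 8.96 (7.62 to 9.15) in wild-type and 8.18 (8.0 to 9.50) in Myd88KO tracheas. Injured Myd88KO arrays 1 and 5, at 9.50 and 8.95, were the highest of their group. The same held for Mogat1 probe 3, Dgat2 probe 3, Lpin1 probe 3 and Gpam. For Agpat2 probe 1 and Dgat1 probe 2 these arrays were instead the lowest of the group, and Mogat2 was lowest on array 5. Brown adipocyte markers were summed over 7 genes, of which 6 were above background on all 20 arrays. Their medians were 8.29 and 8.45 in uninjured and 7.48 and 7.28 in injured wild-type and Myd88KO tracheas. Arrays 1 and 5 were also the highest of the injured Myd88KO group for this sum, at 8.46 and 8.84. Probe by probe, the median difference between uninjured Myd88KO and wild-type tracheas was 0.52 for 13 white adipocyte probes, 11 of them higher in Myd88KO, and 0.50 for 8 brown adipocyte probes, 7 of them higher, beside 0.41 for the members. With injury in Myd88KO tracheas the medians were −0.75 and −0.86, and −1.10 for 5 thyroid probes, beside −1.02 for the 16 member probes. Without replicate 5 they were −0.82, −1.19 and −1.05, beside −1.27. For white adipocytes the medians of the summed signal in the uninjured groups were in the other order. No adipocyte marker passed the test in any of the 5 comparisons over all arrays, where 0% to 5.26% of all probes passed. Without replicate 5, 1 brown adipocyte probe passed with injury in Myd88KO tracheas, where 4.12% of all probes passed. The part of fat cells in the member values was not tested. Of the 6 enterocyte markers, Apoa4, Lct and Sis were well above background on no array, while 2 were so on all 20 arrays. The thyroid markers Tg and others, from a gland beside the trachea, had a summed signal of 6.43 to 8.88 over the arrays, and 6 airway secretory markers had medians of 10.95 and 11.28 in uninjured and 9.71 and 9.73 in injured wild-type and Myd88KO tracheas.

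26 gene names, Dgat2 among them, had 42 tested probes within 1 Mb of the Mogat2 probe. The 3 Dgat2 probes, about 65 kb away, differed between uninjured genotypes by 0.61 to 0.72, and the median of the 42 was 0.02. Of the 42, 2 were called in uninjured tracheas, where 0.384% of all probes were, both of Pold3, a DNA polymerase subunit. The 2 probes start 1 base apart and went in opposite directions, at −1.68 (adjusted p = 0.000978) and 1.58 (adjusted p = 4.13e-05). The same 2 were called in injured tracheas, at −1.80 and 1.10, together with a probe named 6430704N06 (−1.28, adjusted p = 0.00674), where 0.38% of all probes were called. The remaining Pold3 probe differed by 0.02 in uninjured and −0.09 in injured tracheas. Mogat2 itself differed by 0.18 between injured genotypes.

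Among the 5 probes whose signal was most like that of Mogat2 over the 20 arrays, by Pearson's r among 26062, were those of Cxcl9 (0.790), Lactb2 (0.783), Srebf1 (0.769) and Tgif2 (0.767). The arrays share 4 groups, and for deviations from the group means r was 0.732, 0.511, 0.148 and 0.350 in the same order, so that Srebf1 shared mainly the group means. Srebf1, a regulator of fatty acid synthesis genes, had means of 4.47 and 5.19 in wild-type and Myd88KO tracheas without injury and 4.68 and 4.69 with it. Cxcl9, a chemokine induced by interferon gamma, had −2.83 and −1.57 without injury and −2.58 and −2.83 with it. Among the other members r with Mogat2 was highest for Dgat2 probe 3 (0.482), and for deviations from group means it was 0.507 to 0.545 for the 3 Mogat1 probes. These values are descriptions over arrays that share groups and slides.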

How the data were processed

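Total RNA of 20 whole tracheas was labelled with Cy3 and hybridised to 1 Agilent mouse oligonucleotide array each. The authors deposited the scanner output of Agilent Feature Extraction, whose processed intensity has the background subtracted but is not scaled between arrays, and a value table of the same intensity, rounded. Groups and replicate numbers come from the sample titles. The 75th percentile of intensity was 495 to 972 over the arrays and 57.5% to 67.8% of spots were well above background. The number of arrays limits the precision.

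Spots marked as outliers were left out (1960 values), spots of 1 probe were averaged, and log2 intensity was taken relative to the 75th percentile of each array. The outlier spots were kept for the marker genes given as checks. Probes well above background on 10 or more arrays, the 50% that the methods ask for, were tested with limma 3.58.1 in R 4.3.3 over all 20 arrays. Benjamini-Hochberg adjustment was made within each comparison over all 26063 probes, with a threshold of 0.01, as in the methods. The methods name a one-way test across samples without a rule for 2 groups, and this test was run as an alternative on the 2 groups of each comparison. Fits were tested on simulated data. The replicate number marks the slide in the scanner output, and deviations from the group means correlated above 0.1 in 16 of 20 same-slide pairs (−0.219 to 0.476). Slide and scanning day (2 days) were therefore used as blocks in alternatives.

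The members and lists were chosen with earlier results of these data known. Genes are named by a rule: every member probe, list genes that passed the test (at most 6 per direction and comparison), Gpd1, Cds2, Lpl, Lipe, Pnpla2, Plin1 and Myd88, called probes within 1 Mb of Mogat2, and the 5 probes most like Mogat2, of which 1 is not reported here. Genes called without injured Myd88KO replicate 5, and those named beside the rule, were chosen after their values were seen. List genes were matched through a table of GRCm38.p6 gene names, by accession for 22951 probes, by symbol for 6659 and by an older symbol for 3152, and 8412 kept the name on the array. Upstream windows are those of RefSeq.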

Additional observations from a re-analysis of the deposited data

Results flagged for a closer look

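The 64 groups of 5 values behind the 16 member probes were searched for 1 array far from the other 4, measured as its gap to the nearest of them over the range of the group. About 1 group in 20 would be found by chance, and 4 were found. For Mogat2, injured Myd88KO replicate 1 lay above the rest (gap 0.817 of the range, −1.28 against −2.63 to −2.93), and without it the difference between injured genotypes was −0.11 instead of 0.18. For Agpat2, injured Myd88KO replicate 4 was the highest with both probes (0.826 and 0.752 of the range). For Lpin1 probe 2, uninjured Myd88KO replicate 2 was the lowest (0.719 of the range, 2.27 against 2.79 to 2.99).

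Mogat2 was higher after injury on all 5 slides in wild-type tracheas and lower on all 5 in Myd88KO tracheas, with a difference of −2.45 between the changes. No test of this difference is given, because Mogat2 was chosen from the uninjured arrays that enter it. The summed signal of white adipocyte markers was at medians of 9.10 and 8.96 in uninjured and injured wild-type and 8.96 and 8.18 in uninjured and injured Myd88KO tracheas, while the median difference between uninjured Myd88KO and wild-type over the single probes was 0.52 for white and 0.50 for brown adipocyte markers. Their part was not tested.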

How the results depend on the processing

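Results were recomputed under 13 other settings, of which 1, with the Xist class of each array as a block, was chosen after seeing the data, and with each of the 20 arrays left out in turn. The difference of Mogat2 between injured genotypes was called in none of them, but turned to −0.05 (adjusted p = 0.969) with array weights. With 1 array left out it ranged from −0.11 to 0.33, the lowest being without injured Myd88KO replicate 1 (adjusted p = 0.937). With the replicate block (slide) it was 0.18. For injury in Myd88KO tracheas 0 of 16 member probes were called, where 98 of all 26063 probes were. Of the 15 other than that of Mogat2, 13 were lower at an unadjusted p under 0.05, against 12.2% of all probes. The count of called members was 1 with normexp (Dgat2 probe 3), of 123 probes called in all. It was 1 with the replicate block (Mogat2, from whose call nothing is read), of 143 in all. With scanning day as a block it was 2 (Dgat2 probe 3 and Lpin1 probe 3), of 361 in all. With array weights it was 10 (Mogat2 among them), of 1904 in all, so that calls rose over the whole array. With 1 array left out the count ranged from 0 to 4. It was 1 without injured Myd88KO replicate 1 (Dgat2 probe 3), of 57 probes called in all. Without replicate 5 it was 4 (Dgat2 probe 3 and Lpin1 probes 2, 3 and 4), of 1075 in all. For injury in wild-type tracheas the count was 0, of 1372 probes called in all. Of the 15 probes other than that of Mogat2, 6 were lower at an unadjusted p under 0.05, against 11.9% of all probes. The count of called members was 4 with array weights (the 3 Mogat1 probes and Dgat2 probe 3), of 2598 in all. With only the 2 groups compared in the fit it was 1 (Mogat1 probe 3), of 1579 in all. In the fit over all groups it was 0 whichever array was left out. Between uninjured genotypes the count of 1 is that of Mogat2 and is fixed by its choice, and with the methods' one-way test it was 0, with 46 probes called in all against 100. The replicate block changed no other count of member probes past the adjusted threshold. Of 1141 medians of a gene over its probes, 1139 stayed within 1 SD of the replicates, and 2 did not: with normexp, the Mogat2 difference was 1.75 in uninjured tracheas and −1.67 between the injury changes. No cause of these shifts was tested. Mogat1 probe 2 was not well above background on most injured arrays.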
